A study of Mus musculus with 18 samples.

Results

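The 38 genes described here carry out DNA replication and cell division. They were taken by name from the 52636 genes of the tables, in which each of them has a row, and were sorted by role into origin licensing and the helicase (9 genes), the clamp and nucleotide supply (4), regulators of G1 and of the passage into S phase (5), cyclins and kinases of S, G2 and M phase (7), chromosome, kinetochore and checkpoint proteins (9) and spindle proteins (4). RNA was sequenced in 18 libraries of mouse colon. Of these, 6 came from sorted cells. They were 2 samples of Epcam+ve cells, which are epithelial cells at large, from 1 WT mouse, and 2 pools each of Epcam+ve/GFP+ve cells from heterozygous (HE) and homozygous (KO) mice of the Olfr78-GFP line, with 2 adult mice in each pool. In that line a GFP-IRES-tauLacZ cassette replaces the exon that encodes Olfr78, a receptor for short-chain fatty acids, so that GFP marks cells in which the Olfr78 locus is active. HE cells kept 1 intact allele and KO cells none, and GFP was present in both. The other 12 libraries were whole colon crypts, each from 1 mouse. The Olfr78-GFP line gave 2 WT and 5 KO mice. The other 5 were 3 eControl and 2 eKnockout mice of a line in which Cre under the villin promoter removes a floxed Olfr78 in epithelial cells, leaving other cells of the crypt preparation with the gene. By the methods, eControl mice carried either Cre with intact Olfr78 or the floxed gene without Cre.

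A cell that divides copies its DNA once in S phase and separates the copies in M phase. In G1, D-type cyclins and then E-type cyclins drive kinases that free the E2F factors, which switch on the replication genes. Cdc6 and Cdt1 load the MCM helicase on replication origins, the GINS complex helps to turn it into a working helicase, and the clamp Pcna holds the polymerases on DNA. Cyclins A and B with Cdk1 then drive mitosis, and their genes are shut in resting cells by a repressor complex that binds the CHR element of promoters. In the colon, stem cells and progenitors near the crypt base divide, and their differentiated progeny, the colonocytes, goblet cells and hormone-secreting enteroendocrine cells, leave the cycle.

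Values are CP20M, reads scaled to 20000000 per library. The sorted libraries held 532704 reads on genes in KO pool 1 and 1499836 to 2237486 in the other 5, and the crypt libraries 6175306 to 10995342. One read was therefore worth 37.5 CP20M in KO pool 1, 8.94 to 13.3 in the other sorted libraries and 1.82 to 3.24 in the crypts, so that a difference of a few reads could not be seen in the sorted cells. Olfr78 stood at 135 and 21 CP20M in the Epcam+ve libraries, 4822 and 4401 in the HE-cell pools and 977 and 837 in the KO-cell pools. In the crypts it was 88 and 111 in WT mice, 42, 23, 27, 28 and 7 in KO mice and 105, 61 and 124 in eControl mice. It was 21 in eKnockout mouse 1 but 73 in the library labelled eKnockout mouse 2, within the eControl range. The genotype label of that library, WT/HO, is the same as that of eControl mouse 2, so by this label it would be a control. Whether its title or its genotype label is right is not known. Libraries were grouped by title, and results of this line are therefore given with and without that library. Cells outside the epithelium keep Olfr78 in this line. The 7 stroma and endothelium markers summed to 844 CP20M in eKnockout mouse 1 and 2162 in the library labelled eKnockout mouse 2. In eControl mice they summed to 550, 2088 and 1028. The part of such cells in the Olfr78 values was not tested. The label of the Epcam+ve libraries calls them enteroendocrine, but Chga, the granule protein that defines those cells, stood at 3504 and 3380 there against 242823 and 304540 in the HE-cell pools, so they are called Epcam+ve cells here.

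GFP+ve cells of HE mice held far less RNA of the division genes than Epcam+ve cells. Of the 38 genes, 33 fell, 1 rose and 4 did not pass the test (limma, adjusted p under 0.05), where 11.3% of all genes tested fell and 12.5% rose. Their median log2 fold change was -2.27, against -0.05 over all genes. The values of the HE-cell pools lay below both Epcam+ve libraries for 36 genes, as they did for 33.1% of all genes, above them for 1 and overlapped for 1. The calls fell on every role: 7 of 9 licensing and helicase genes, 4 of 4 clamp and nucleotide genes, 3 of 5 G1 and G1/S regulators, 6 of 7 cyclins and kinases, 9 of 9 chromosome and kinetochore genes and 4 of 4 spindle genes were lower. The stricter thresholds of the study's methods are an adjusted p under 0.001 and a log2 fold change beyond 2. Applied to the limma fit, they left only Mcm6 lower, beside 0.171% of all genes. The study applied them to edgeR results, and edgeR was not counted at these thresholds here. The Epcam+ve libraries were 2 samples of 1 mouse, so the spread between them holds no variation between mice. The p values of comparisons with Epcam+ve cells therefore do not measure variation between WT mice. That mouse was WT and the GFP+ve pools came from HE or KO mice, so cell population, genotype and animal cannot be told apart. In bulk RNA, fewer dividing cells and less RNA per cell cannot be told apart.

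**Figure D1:**
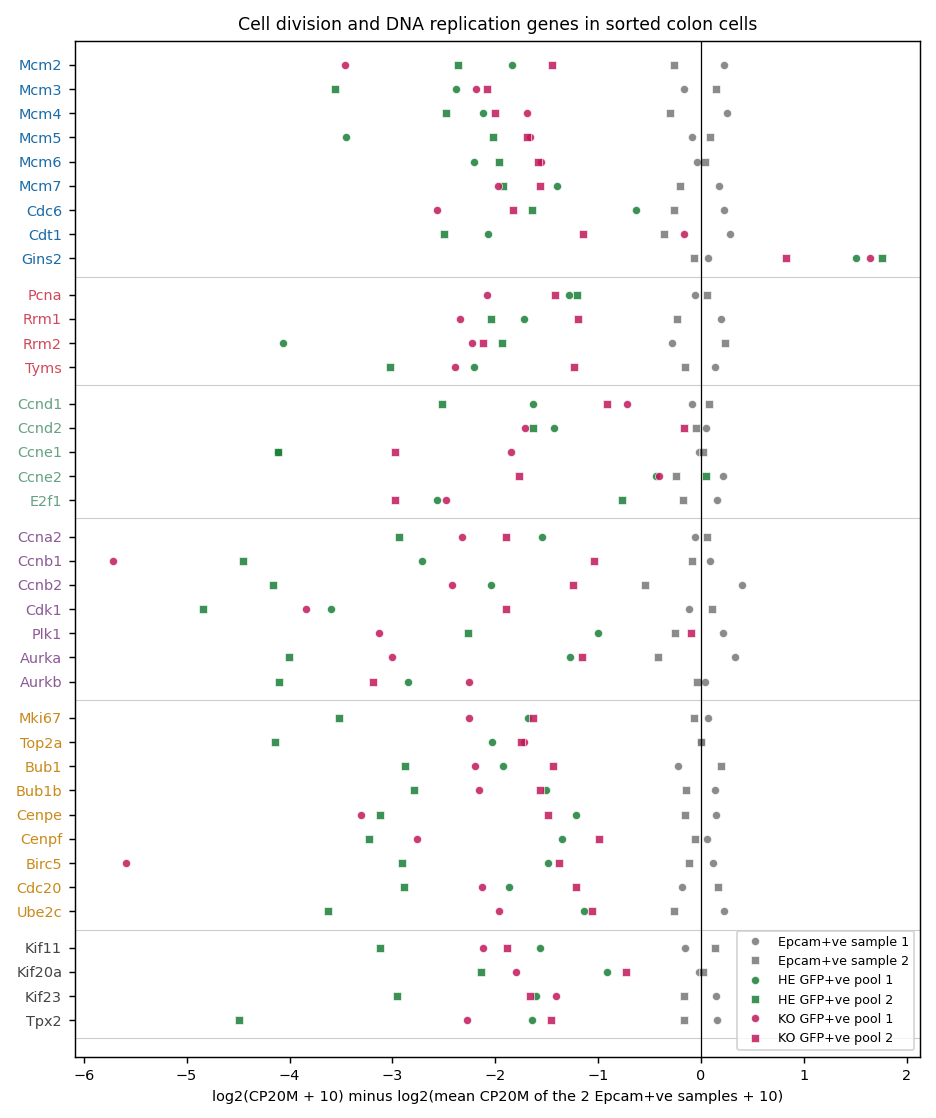
Level of each of the 38 genes in each of the 6 sorted libraries, as log2(CP20M + 10) minus that of the mean of the 2 Epcam+ve libraries (x axis). Genes run from top to bottom by role, with lines between the roles: licensing and helicase, clamp and nucleotide supply, G1 and G1/S regulators, S/G2/M cyclins and kinases, chromosome and kinetochore, spindle. Points of the GFP+ve pools lie left of the Epcam+ve libraries for nearly all genes, and Gins2 lies to the right of them in all 4 pools.

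The MCM genes encode the ring that unwinds DNA, and all 6 of them fell. Mcm6 stood at 1958 and 2055 CP20M in the Epcam+ve libraries and at 426 and 507 in the HE-cell pools, a log2 fold change of -2.09 (SE 0.23, adjusted p = 0.000721). Mcm3 went from 948 and 1182 to 196 and 81, with a log2 fold change of -2.96 (SE 0.43, adjusted p = 0.00272). Mcm5 went from 689 and 781 to 58 and 174 (log2 fold change -2.73, adjusted p = 0.00688). In each of these the HE-cell pools lay well under both Epcam+ve libraries. Mcm2, Mcm4 and Mcm7 fell too, with log2 fold changes of -2.08, -2.28 and -1.65. The loading factor Cdt1 went from 519 and 329 to 93 and 67 (log2 fold change -2.25, adjusted p = 0.0111). The span of the gene Gm20388, introns included, overlaps that of Cdt1 by 5540 bases on the same strand. Gm20388 read 599 and 720 against 438 and 521. Overlap of exons was not computed, and how reads in any shared exons were counted is not given. Cdc6, the partner of Cdt1, had 322 and 227 against 173 and 81, and did not pass the test (log2 fold change -1.12, adjusted p = 0.15).

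Gins2, a subunit of the GINS complex, was the only member that rose. It stood at 841 and 761 CP20M in the Epcam+ve libraries and at 2290 and 2734 in the HE-cell pools, a log2 fold change of 1.63 (SE 0.21, adjusted p = 0.00156). The HE-cell pools were about 3.14 times the Epcam+ve mean, and the KO-cell pools, at 2516 and 1430, also lay above both Epcam+ve libraries. The gene lies at chr8:120578633-120589304 on the minus strand of GRCm38, and its span shares 2758 bases with the end of the span of Gse1 on the plus strand. Gse1 itself read 1842 and 1624 in the Epcam+ve libraries, 6628 and 7521 in the HE-cell pools and 5557 and 3975 in the KO-cell pools. Gm20388, also on the plus strand, has a span that overlaps that of Gins2 by 10672 bases. It read 599 and 720, then 438 and 521, and then 413 and 512 in the same libraries. These spans hold introns as well as exons, and overlap of exons was not computed. Whether the counting used strand is not given in the sources used here. Without it, reads from any shared exons cannot be told apart. The other 3 GINS subunits, which belong to the same complex, were not higher in the HE-cell pools. Gins4 read 260 and 175 in the Epcam+ve libraries and 127 and 54 in the HE-cell pools, Gins3 read 90 and 62 against 70 and 27, and Gins1 read 36 and 103 against 24 and 0.

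All 4 genes that supply the replication fork fell. Rrm2, the regulated subunit of ribonucleotide reductase, had 608 and 874 CP20M in the Epcam+ve libraries and 35 and 187 in the HE-cell pools (log2 fold change -2.97, SE 0.65, adjusted p = 0.0137). Its large subunit Rrm1 went from 2244 and 1665 to 587 and 467, and Tyms, which makes thymidylate, from 921 and 750 to 173 and 94. Their log2 fold changes were -1.86 (adjusted p = 0.00202) and -2.61 (adjusted p = 0.00303). Pcna, the sliding clamp, showed the smallest fall of all members called, from 2164 and 2353 to 921 and 974 (log2 fold change -1.24, SE 0.20, adjusted p = 0.00375), and both HE-cell pools stayed near 0.42 of the Epcam+ve mean.

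The regulators of G1 were mixed. Ccnd1 and Ccnd2, the D-type cyclins that answer growth signals, went from 1699 and 1911 to 576 and 307 and from 4595 and 4315 to 1646 and 1427. Their log2 fold changes were -2.07 (adjusted p = 0.00312) and -1.53 (adjusted p = 0.0011). Ccne1, a cyclin of the passage into S phase, stood at 161 and 165 in the Epcam+ve libraries and at 0 in both HE-cell pools, so it was at least 4.37-fold lower, taking 3 reads per library as the limit that a count of 0 allows (adjusted p = 0.00344). Its paralog Ccne2 had 582 and 422 against 369 and 521 and was the member whose groups overlapped (log2 fold change -0.17, adjusted p = 0.742). The span of Ccne2, introns included, shares 5622 bases with that of Ints8 on the other strand, and Ints8 read 751 and 822 against 1082 and 934. The transcription factor E2f1 had 287 and 227 against 35 and 147, and did not pass the test (log2 fold change -1.66, adjusted p = 0.101).

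Falls were deep among the cyclins and kinases of mitosis. Cdk1, the kinase that starts mitosis, went from 626 and 730 CP20M to 47 and 14, a log2 fold change of -4.21 (SE 0.56, adjusted p = 0.0018). Its partner cyclins Ccnb1 and Ccnb2 went from 546 and 483 to 70 and 14 and from 859 and 442 to 150 and 27. The log2 fold changes were -3.58 (SE 0.64, adjusted p = 0.00594) and -3.03 (SE 0.70, adjusted p = 0.0163). Values of 14 CP20M are about 1 read, so the sizes of these falls are loosely set. Aurkb, the kinase of the chromosomal passenger complex, went from 412 and 391 to 47 and 14 (log2 fold change -3.48, adjusted p = 0.00498). Ccna2, the A-type cyclin of S and G2, and Plk1, a kinase of mitotic entry and spindle formation, fell with log2 fold changes of -2.24 and -1.61. Aurka, the kinase of the spindle poles, had 474 and 278 against 150 and 14, and did not pass the test (log2 fold change -2.59, adjusted p = 0.0562).

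All 13 chromosome, kinetochore and spindle genes fell. Mki67, the gene of the widely used proliferation marker, went from 14526 and 13211 CP20M to 4304 and 1201 (log2 fold change -2.60, SE 0.48, adjusted p = 0.0068). Top2a, the topoisomerase that untangles replicated chromosomes, went from 5373 and 5353 to 1301 and 294 (log2 fold change -3.09, SE 0.55, adjusted p = 0.00588). In both genes the Epcam+ve libraries stood close together while HE pool 1 was the higher of the 2 HE-cell pools. The other 7 chromosome and checkpoint genes fell with log2 fold changes between -2.14 and -2.39. They are the spindle checkpoint kinase Bub1 and its relative Bub1b, the kinetochore proteins Cenpe and Cenpf, the passenger protein Birc5, and Cdc20 and Ube2c, which mark cyclins for destruction at the end of mitosis. Of the spindle genes, Tpx2, which nucleates microtubules around chromosomes, went from 1261 and 1007 to 357 and 41 (log2 fold change -3.06, adjusted p = 0.0228). The motors Kif11, Kif23 and Kif20a, which separate the poles or act in cytokinesis, fell with log2 fold changes of -2.34, -2.27 and -1.52.

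The replication and the mitotic members differ in the letters of their promoters as well as in their roles. Promoter windows of RefSeq on GRCm38.p6, from 250 bases before to 50 after the start, were found for 29 of the 38 genes (30 windows), out of 32851 windows in all. To show this, 160 bases before the start are printed for helicase genes (Mcm6 at chr1:128359706-128359865, minus strand, and Mcm5 at chr8:75109349-75109508, plus strand) and for mitotic genes (Cdk1 at chr10:69352939-69353098, Top2a at chr11:99024190-99024349 and Mki67 at chr7:135716380-135716539, all on the minus strand). The stretch ends at the base before the start, except in Cdk1, where another annotated transcript begins earlier and the stretch runs from -186 to -27. They read 5′ to 3′ in the direction of the gene, and capitals mark E2F, CHR and CCAAT matches on either strand.
Mcm6: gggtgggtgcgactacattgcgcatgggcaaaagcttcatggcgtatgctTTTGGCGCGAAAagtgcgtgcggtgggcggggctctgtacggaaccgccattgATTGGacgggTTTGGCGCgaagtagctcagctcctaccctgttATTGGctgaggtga
Mcm5: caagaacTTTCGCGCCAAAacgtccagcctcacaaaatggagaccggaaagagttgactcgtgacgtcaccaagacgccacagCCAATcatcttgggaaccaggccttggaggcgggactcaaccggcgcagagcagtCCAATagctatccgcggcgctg
Cdk1: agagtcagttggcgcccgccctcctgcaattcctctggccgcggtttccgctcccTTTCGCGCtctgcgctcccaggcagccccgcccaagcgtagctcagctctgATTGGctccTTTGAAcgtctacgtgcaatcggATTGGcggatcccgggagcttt
Top2a: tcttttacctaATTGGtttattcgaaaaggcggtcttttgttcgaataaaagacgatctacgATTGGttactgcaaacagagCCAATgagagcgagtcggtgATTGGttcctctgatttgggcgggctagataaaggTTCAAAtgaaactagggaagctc
Mki67: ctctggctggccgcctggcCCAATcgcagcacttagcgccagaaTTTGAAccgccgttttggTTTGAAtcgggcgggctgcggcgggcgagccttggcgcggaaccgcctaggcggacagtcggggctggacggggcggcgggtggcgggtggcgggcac

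E2F matches were searched as TTTGGCGC, TTTGCCGC, TTTCGCGC and TTTCCCGC, the CHR element as TTTGAA and the CCAAT box as CCAAT, on both strands, where the E2F matches may overlap each other. In Mcm6 the capitals hold 3 E2F matches, of which 2 overlap on opposite strands, and in Mcm5 they hold 2 that overlap. In Top2a and Mki67 they hold 1 and 2 CHR matches and no E2F match, and Cdk1 has 1 of each. An E2F match was found in 7 of the 30 member windows (23.3%) and in 2.26% of all windows. Of the 12 replication windows 6 had it, all among the 8 of licensing and helicase genes and none among the 4 of the clamp and nucleotide genes, and of the 16 windows of cyclins, kinases, chromosome and spindle genes 1 had it. The CHR letters were found in 13 of the 30 windows (43.3%) and in 17.9% of all windows, in 12 of the 16 mitotic windows and in 1 of the 12 replication windows. CCAAT was found in 24 of 30 (80.0%) against 37.4% of all windows, and the TATA letters TATAAA in 0 of 30 against 13.6%. A match is a run of letters and does not show that a factor binds there.

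The pools of HE cells stood farther apart in the mitotic genes than in the replication genes. All 20 cyclin, kinase, chromosome and spindle members were more than 2 times as high in HE pool 1 as in HE pool 2, whereas 2 of the 13 replication members were and 2 others, Rrm2 and Mcm5, were more than 2 times as high in HE pool 2. The share of all genes that differed as much was not counted. Several of the 20 rest on few reads: HE pools 1 and 2 held 4 and 1 of Cdk1, 4 and 1 of Aurkb and 31 and 3 of Tpx2. Mki67 had 374 and 90, and Top2a 113 and 22. Summed over the 20 genes, HE pool 1 held 11369 CP20M and HE pool 2 held 3267, which are 31.5% and 9.0% of the Epcam+ve mean. Without Mki67, the member with the highest values, these shares were 31.7% and 9.3%. The 12 replication genes other than Gins2 summed to 26.9% and 24.4% of the Epcam+ve mean. In the KO-cell pools the mitotic sums were 20.8% and 35.2%, and those of the 12 replication genes 25.6% and 33.8%. KO pool 1, the library with the fewest reads, had 0 reads of Ccnb1 and Birc5.

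**Figure D2:**
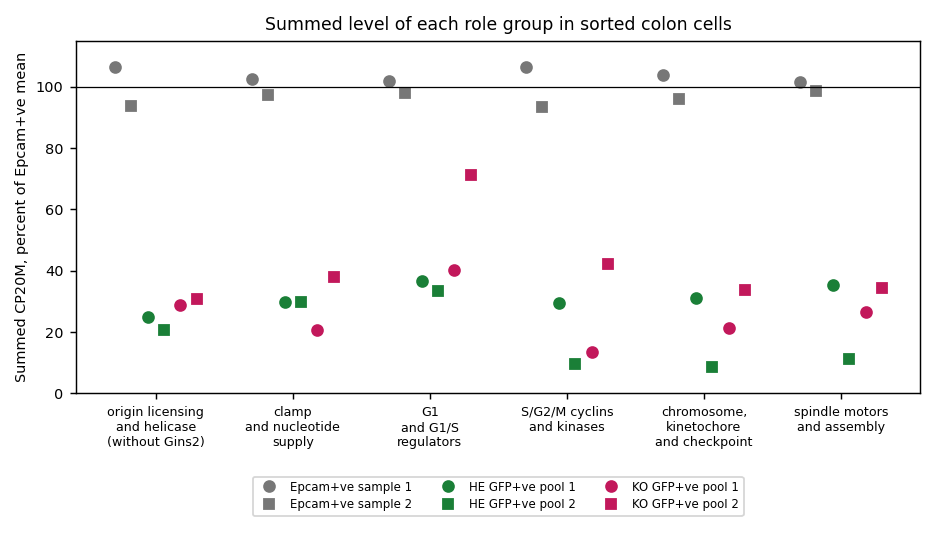
Summed CP20M of the members of each role in each of the 6 sorted libraries, as a percent of the mean of the 2 Epcam+ve libraries (y axis). Gins2 is left out of its role. In the 3 roles of S, G2 and M phase at the right, HE pool 2 lies between 8.5% and 11.1% and HE pool 1 between 29.5% and 35.3%, while the HE-cell pools lie close together in the 3 roles at the left.

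Marker sums of other cell types also differed between the pools. The 5 goblet cell markers summed to 338141 and 292658 CP20M in the Epcam+ve libraries, 141325 and 66835 in the HE-cell pools and 63039 and 313891 in the KO-cell pools. The 5 stem and progenitor markers summed to 5124 and 5068, then 3006 and 1577, and then 2480 and 2989. The 5 colonocyte markers summed to 86743 and 75570, 62196 and 48034, and 21252 and 50537. HE pool 2 had lower sums of all 3 lists than HE pool 1, and the higher enteroendocrine sum, 1105750 against 848428. Most single markers of the goblet list (4 of 5) and all 5 of the stem list were lower there, but only 2 of the 5 colonocyte markers, Car1 and Slc26a3, were, and Krt20, Aqp8 and Ceacam20 were higher. Among the KO-cell pools, pool 1 had the higher enteroendocrine sum, 599623 against 353887. All 6 enteroendocrine markers passed the test in HE cells and were higher than in Epcam+ve cells. The 8 leukocyte markers summed to at most 135 in any sorted library, with Cd3e, Cd3g and Laptm5 at 0 in all 6. The 7 stroma and endothelium markers summed to 709 and 774 in the Epcam+ve libraries, 4411 and 5215 in the HE-cell pools and 4920 and 2304 in the KO-cell pools, most of it Vim and Pecam1, while Col1a1 stood at 0 or 12 in the 4 pools. The 9 mitochondrially encoded genes summed to 1520731 and 1430474 in the Epcam+ve libraries, 1166367 and 747393 in the HE-cell pools and 902646 and 2371003 in the KO-cell pools. The part of these differences in the results for the division genes was not tested.

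Other genes of the same pathways were compared from lists written for this purpose. Of 45 other replication genes tested, 26 passed the test in HE cells (limma, 36 at an unadjusted p under 0.05), all of them lower, with a median log2 fold change of -1.43. Uhrf1, which carries DNA methylation through replication, went from 1350 and 1007 CP20M to 104 and 187 (log2 fold change -2.97, adjusted p = 0.0014), and Lig1, which joins the fragments of the lagging strand, from 1207 and 1059 to 311 and 281 (log2 fold change -1.90, adjusted p = 0.00233). Of 46 other mitosis genes, 33 passed (39 at an unadjusted p under 0.05), all lower, with a median of -2.35. Among them Smc2, a condensin subunit, and Kif4, a chromosome motor, fell with log2 fold changes of -2.15 and -2.57. Of 20 other genes of G1/S control, 8 passed, all lower, with a median of -0.52, and the log2 fold changes of E2f8, a repressor of the E2F family, and Cdk2, the kinase of cyclins E and A, were -2.71 and -2.26. The list of kinase inhibitors and antiproliferative genes did not move in 1 direction. Of its 10 genes, Btg2 and Cdkn1b rose and Ccng1 and Cdkn1a fell. Cdkn1b, the inhibitor p27, went from 1618 and 1398 to 3614 and 3681 (log2 fold change 1.27, adjusted p = 0.00261), and Btg2 from 2101 and 2579 to 7227 and 6588 (log2 fold change 1.56, adjusted p = 0.00104). Cdkn1a, the inhibitor p21, had 832 and 586 against 392 and 281 (log2 fold change -1.05, adjusted p = 0.0492).

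KO cells were next compared with HE cells, both GFP+ve, which asks whether the loss of Olfr78 goes with a change of the division genes. Only genes above 40 CP20M in all 4 pools were tested, which left 28 of the 38, and Cdc6, Rrm2, Ccne1, E2f1, Ccnb1, Ccnb2, Cdk1, Aurka, Aurkb and Birc5 were not tested. None of the 28 passed limma's test, as 0% of all genes did, and 2 had an unadjusted p under 0.05 (4.23% of all genes). edgeR and DESeq2 on recovered reads also called 0. The log2 fold change was above 0 for 22 and below 0 for 6, with a median of 0.49 against -0.18 over all genes. After median-of-ratios rescaling, which brought the median of all genes to -0.003, that of the members was 0.66 and again 0 passed. The sign of the median depended on HE pool 2, without which it was -0.23.

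The study's criterion for this comparison asks that the group means differ by more than 2 of their averaged SDs and at least 1.5-fold. It was met by 5 members, all higher in KO cells, where 3.23% of all genes were higher and 9.98% lower by it. They were Mcm3, Mcm5, Cdt1, Ccnd1 and Top2a. Cdt1 stood at 93 and 67 CP20M in the HE-cell pools and 376 and 186 in the KO-cell pools, a log2 fold change of 1.63 (SE 0.58, limma adjusted p = 0.931). Gm20388, whose span overlaps that of Cdt1, read 438 and 521 against 413 and 512. Ccnd1 stood at 576 and 307 against 1089 and 953 (log2 fold change 1.26, SE 0.43, adjusted p = 0.931), and Top2a at 1301 and 294 against 1615 and 1592 (log2 fold change 1.35, SE 0.61, adjusted p = 0.931). For Mcm3 the values were 196 and 81 against 226 and 245, and for Mcm5 58 and 174 against 226 and 221. In reads, these were 17 and 6 against 6 and 21 for Mcm3 and 5 and 13 against 6 and 19 for Mcm5. The closeness of the KO-cell pools, on which the criterion depends, thus rests on few reads in these 2 genes. Cdt1 also had few, 8 and 5 reads in the HE-cell pools against 10 and 16 in the KO-cell pools, so its fold change is loosely set. With genes above 200 CP20M alone, 12 members could be tested and 2 met the criterion, Ccnd1 and Top2a. Among the 28 members tested, the KO-cell pools lay above both HE-cell pools for 7 (8.91% of all genes), adding Mcm4 and Mcm6 to these 5, and below them for 1 (26.1% of all genes), Pcna, at 921 and 974 against 526 and 837. Of the members not tested, Ccne1 also lay above, at 0 and 0 against 38 and 12, and Cdc6 below, at 173 and 81 against 38 and 70. In reads, these were 0 and 0 against 1 and 1 for Ccne1 and 15 and 6 against 1 and 6 for Cdc6. Both orders thus rest on very few reads.

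KO cells also held less of the division genes than Epcam+ve cells. This comparison shares its Epcam+ve libraries with that of HE cells and its KO-cell pools with that of KO against HE cells. All members but Gins2 had a log2 fold change below 0, with a median of -1.81 against -0.26 over all genes, and the KO-cell pools lay below both Epcam+ve libraries for 35 members (35.5% of all genes). Only 2 passed the test, beside 0.114% of all genes, while 33 had an unadjusted p under 0.05 (18.5% of all genes). Ccna2 went from 2021 and 2199 CP20M to 413 and 558, a log2 fold change of -2.11 (SE 0.30, limma adjusted p = 0.0492). Top2a went from 5373 and 5353 to 1615 and 1592, a log2 fold change of -1.74 (SE 0.24, adjusted p = 0.0479). Both KO-cell pools stood close together for these genes, on 11 and 48 reads of Ccna2 and 43 and 137 reads of Top2a. The number of calls moved widely with the setting, from 0 with a pseudocount of 1 to 36 without KO pool 2 and 30 without KO pool 1, where the remaining pool is assumed to vary like the other group. Mki67 had 2891 and 4451 in the KO-cell pools (log2 fold change -1.95, adjusted p = 0.0608), Mcm6 had 676 and 663 (log2 fold change -1.57, adjusted p = 0.0696) and Cdk1 had 38 and 175 (log2 fold change -2.86, adjusted p = 0.158). Of the other pathway genes, Uhrf1 fell, to 151 and 117 (log2 fold change -3.04, adjusted p = 0.038).

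Whole crypts hold the dividing cells of the colon, and no member was at 0 in any of the 12 crypt libraries. Across these mice the highest value of a gene was 1.33 to 2.48 times the lowest, with a median of 1.94. The coefficient of variation was 9.0% to 27.3%, with a median of 18.8%. Gins2 varied least, between 928 and 1230 CP20M. Mki67 ran from 5281 to 10599, Ccnb2 from 490 to 1196 and Mcm5 from 381 to 936. Many extremes fell on 2 mice of the conditional line: eKnockout mouse 1 had the highest value of the 12 for 25 of the 38 genes, and eControl mouse 3 the lowest for 21. Others fell on the Olfr78-GFP line, such as the highest Mki67 in KO mouse 1 and the lowest Ccnb2 in KO mouse 2. The shares of all genes with such extremes were not counted. Over the 13 replication genes, the sum was 14076 in eKnockout mouse 1 and 7809 in eControl mouse 3, while the WT mice stood at 10822 and 10835.

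**Figure D3:**
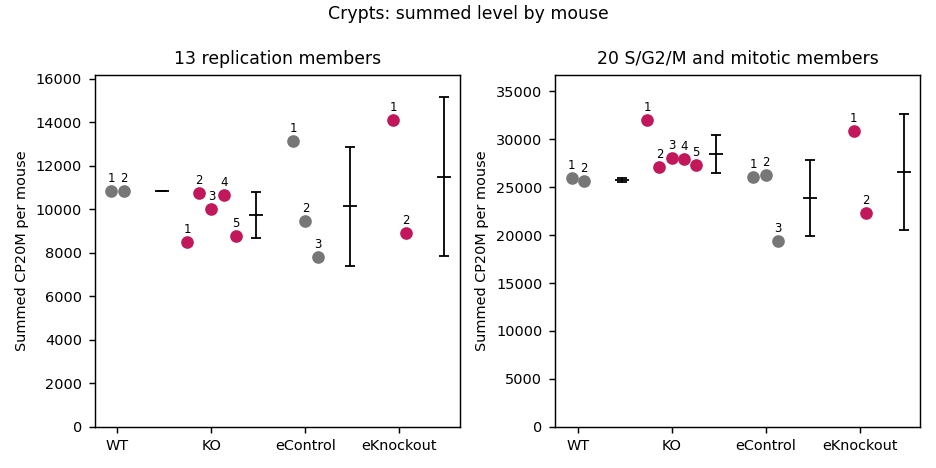
Summed CP20M per mouse in crypts (y axes, from 0) of the 13 replication members (left) and the 20 S/G2/M and mitotic members (right). Each numbered point is 1 mouse, and bars give the mean and SD of the group. The WT mice coincide, whereas the eControl and eKnockout mice spread from 7809 to 14076 at the left and from 19340 to 30862 at the right.

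Olfr78-deficient crypts of both lines were compared with their controls, with the line as a covariate, which asks whether loss of the receptor goes with a change in proliferation genes. By the study's thresholds, an adjusted p no higher than 0.2 and a fold of at least 1.5, no member was called (limma), beside 0.0243% of all genes. By edgeR and DESeq2 also 0 were called. An unadjusted p under 0.05 was reached by 3 members with limma (Plk1, Kif23 and Cenpe), a share close to the 7.7% of all genes, and edgeR and DESeq2 gave 2 each. Of the 38 genes 29 had a log2 fold change above 0, with a median of 0.08 against 0.03 over all genes. Without the library labelled eKnockout mouse 2 the median was 0.15, and without eKnockout mouse 1 it was -0.05.

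In the Olfr78-GFP line alone, no member passed the thresholds of the study's methods, where 7.95% of all genes were higher and 1.53% lower in KO crypts. edgeR and DESeq2 also called 0, and 5 of the 38 members had an unadjusted p under 0.05 with limma, as did 25.9% of all genes. At an adjusted p under 0.05 with no limit on the size, 2 of the 38 rose in KO crypts, a share close to the 5.19% of all genes that did. Plk1 stood at 1018 and 858 CP20M in WT mice and at 1447, 1280, 1324, 1190 and 1241 in KO mice, a log2 fold change of 0.47 (SE 0.11, limma adjusted p = 0.0244). Cenpe stood at 1023 and 933 in WT mice and at 1315, 1299, 1353, 1275 and 1361 in KO mice, a log2 fold change of 0.43 (SE 0.09, adjusted p = 0.017). In both genes all 5 KO mice were above both WT mice. Leaving out a WT mouse leaves 1 library in that group, which is then assumed to vary like the KO mice, and neither gene then had an adjusted p under 0.05. For Plk1 the log2 fold change was 0.59 (adjusted p = 0.0831, which passes the study's thresholds) without WT mouse 1 and 0.34 (adjusted p = 0.305) without WT mouse 2. For Cenpe it was 0.50 (adjusted p = 0.0907) and 0.37 (adjusted p = 0.224). edgeR gave adjusted p values of 0.0385 and 0.0207 for Plk1 and Cenpe, and DESeq2 0.021 and 0.008.

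Mki67 and Kif23 also had all KO mice above both WT mice, which 4 of 38 members did in all and 18.2% of all genes. Mki67 was 8072 and 7914 CP20M in WT mice and 8801 to 10599, with a median of 9179, in KO mice (log2 fold change 0.24, SE 0.09, adjusted p = 0.135). Kif23 was 887 and 840 in WT mice and 946 to 1156 in KO mice (log2 fold change 0.34, adjusted p = 0.0693). Mcm4 and Pcna had all KO mice below both WT mice, where 13.1% of all genes did. Pcna stood at 1566 and 1530 in WT mice and 989, 1361, 1175, 1443 and 1125 in KO mice (log2 fold change -0.36, SE 0.13, adjusted p = 0.117). Over the 38 members 23 fold changes were below 0 and 15 above. Of the other replication genes 1 passed the study's thresholds, Cdc7, the kinase that fires origins, at 126 and 100 in WT mice and 199, 166, 183, 235 and 166 in KO mice (log2 fold change 0.70, adjusted p = 0.0398). Markers of other cells were also compared. The 8 leukocyte markers summed to 960 and 810 in WT mice and 301 to 644 in KO mice, and 5 of the 6 tested were lower by the study's thresholds, with a median log2 fold change of -0.99. The 7 stroma and endothelium markers summed to 1990 and 817 against 642 to 1301, with all 6 tested below 0 in log2 fold change and 0 past the thresholds (limma, 0 at an unadjusted p under 0.05). The 5 stem and progenitor markers summed to 5146 and 4814 against 3496 to 4730, all below 0 and 1 past the thresholds. The 5 goblet markers summed to 419115 and 359461 against 348981 to 622205. The 5 colonocyte markers summed to 128293 and 137578 against 91900 to 116077, with Car1, the largest part of the sum, at 105749 and 111936 against 69591 to 83771 and the log2 fold change of the other 4 above 0. Whether these differences bear on the division genes was not tested.

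In the conditional line no member was called, as 0% of all genes were, and none had an unadjusted p under 0.05 (limma, 0.825% of all genes). edgeR and DESeq2 called 0 members too, with 0 at an unadjusted p under 0.05. The log2 fold change was above 0 for 37 of 38 members, with a median of 0.20 against 0.03 over all genes. The sign of the median depended on eKnockout mouse 1. Without the library labelled eKnockout mouse 2 the median was 0.49, and 9 members had an unadjusted p under 0.05 in a fit where the single eKnockout mouse left is assumed to vary like the eControl mice. Without eKnockout mouse 1 the median was -0.10, with 13 above 0. Without eControl mouse 3 the median was 0.05. Cdk1 stood at 589, 394 and 386 CP20M in eControl mice, at 754 in eKnockout mouse 1 and at 481 in the library labelled eKnockout mouse 2. Only Ccnb1 and Kif23 had both eKnockout libraries above all eControl mice, which 7.58% of all genes did. Ccnb1 was 542, 495 and 469 in eControl mice and 826 and 559 in the eKnockout libraries, and Kif23 was 970, 934 and 743 against 1143 and 1056.

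**Figure D4:**
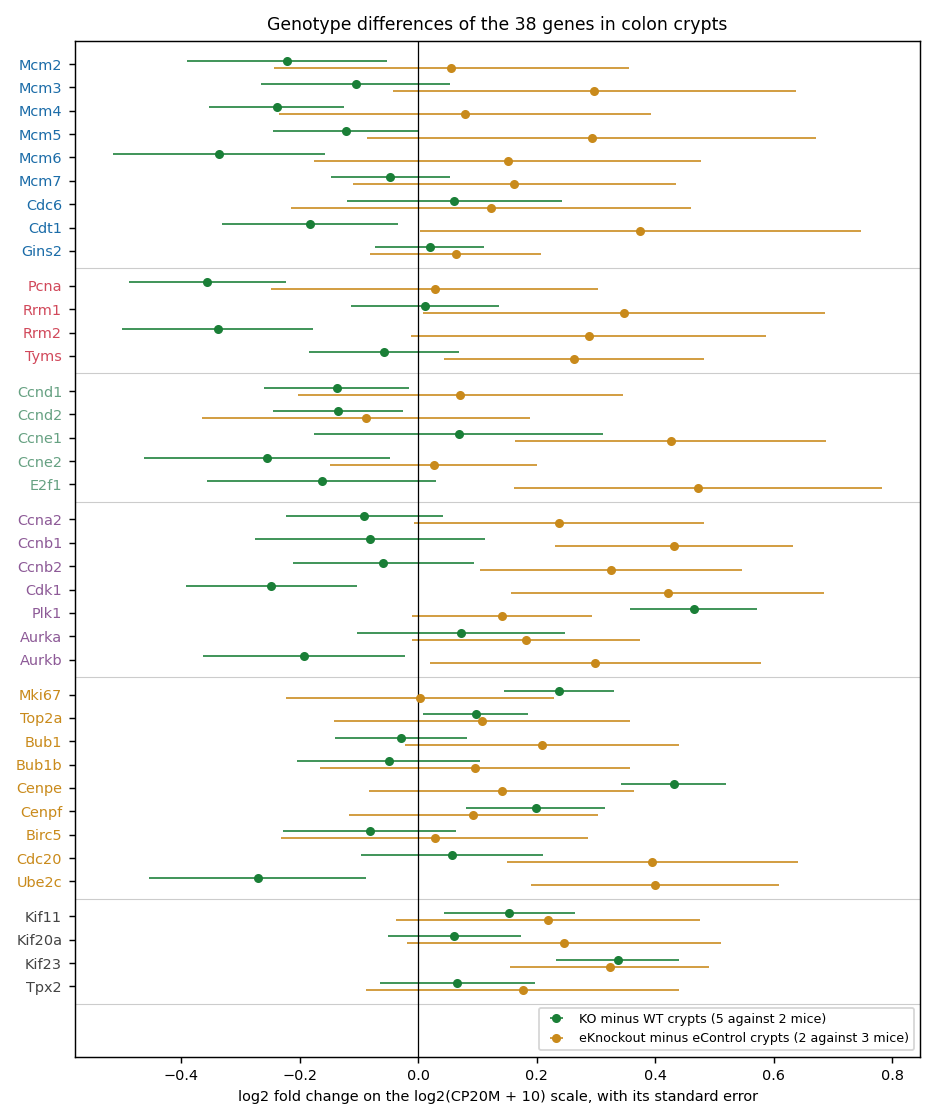
Log2 fold change of each of the 38 genes on the log2(CP20M + 10) scale (x axis), with its standard error, in KO against WT crypts (green) and in eKnockout against eControl crypts (orange). Plk1 and Cenpe are farthest to the right among the green points, at 0.47 and 0.43, and the orange points lie to the right of 0 for 37 genes with wider bars.

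The genotype effect was also compared between the lines, with an interaction term. No member passed the test (limma, adjusted p under 0.05), beside 0.0122% of all genes, and edgeR and DESeq2 called 0. At an unadjusted p under 0.05 there were 2 of the 38 members in the limma fit (Cdk1 and Ube2c, adjusted p = 0.562 for each), where 8.77% of all genes were. Without the library labelled eKnockout mouse 2, 0 passed the test and 15 members had an unadjusted p under 0.05, with the remaining eKnockout mouse assumed to vary like the other groups. The lines have separate tables and, by the study, distinct genetic backgrounds. Background, preparation and the way in which Olfr78 was removed cannot be told apart. The 9 mitochondrially encoded genes summed to 949609, 976118 and 785292 in eControl mice, to 952154 in eKnockout mouse 1 and to 530835 in the library labelled eKnockout mouse 2, and the part of this difference in the result was not tested.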

How the data were processed

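By the study's methods, STAR aligned the paired-end reads to GRCm38, and HTSeq counted them over the genes of Ensembl release 90. RNA was extracted with different kits from sorted cells and crypts. The values deposited for sorted cells are a signal, in which each gene's reads are scaled so that a library has 20000000 and then rounded up (CP20M). The values deposited for crypts are a score of the same making. All 18 columns were used. Reads were recovered by dividing by the value of 1 read, and 99.84% to 99.99% of values above 0 in a library came out whole.

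Samples were grouped by their titles. Genes with at least 40 CP20M (2 CPM) in at least 2 samples compared were tested, and for KO against HE pools in all 4, with limma 3.58.1 (R 4.3.3) with a trend on log2(CP20M + 10) and Benjamini-Hochberg adjustment over all genes. Fold changes are on that scale, which understates those of low genes. The study's thresholds follow its methods, which used edgeR. edgeR 4.0.16 (quasi-likelihood) and DESeq2 1.42.0 on recovered reads were alternatives. The tests were tested on simulated reads. No libraries of a group agreed within sampling noise (chi-square per degree of freedom 3.79 to 32.35).

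The 38 members, their roles, the lists of other pathway genes and the markers were chosen with earlier results of these data known. All members are accounted for, those called with every sample where described, and from each pathway list the 2 genes with the smallest p in each direction among those called. GINS partners, Gse1, Gm20388 and Ints8 were named after their values were seen. Gene overlaps are those of whole gene spans, introns included, in the GRCm38 annotation. By these, 17 members overlap another gene and 8 a protein-coding gene on the other strand.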

Additional observations from a re-analysis of the deposited data

Results flagged for a closer look

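Within the 5 KO crypt libraries, 3 of the 38 genes had 1 mouse far from the other 4 by Dixon's ratio of the gap to the range, where chance gives about 1 gene in 20. Ccnd1 stood at 1680 CP20M in KO mouse 3 against 1245 to 1358 in the others (ratio 0.74). Ccnd2 stood at 4805 in KO mouse 1 against 6109 to 6211 in the others (ratio 0.927). Kif23 stood at 946 in KO mouse 4 against 1105 to 1156 in the others (ratio 0.757). A different mouse stood apart in each gene. Groups of 2 or 3 libraries were not tested.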

How the results depend on the processing

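For HE against Epcam+ve cells, 34 of 38 members were called, and between 23 and 35 under each alternative that kept all libraries, with 1 exception. Without a trend of the spread 18 were called. Leaving out 1 library gave 23 to 36. Of the single genes, Ccne2, which was not called, had log2 fold changes from -0.42 without HE pool 2 to 0.05 without Epcam+ve sample 1 and 0.07 without HE pool 1, a change of sign. For KO against HE cells, 0 were called except without KO pool 1 (1 gene, Ccnd2), so that leaving out a library gave 0 to 1, and with pools crossed in a replicate block (1 gene, Top2a), added after seeing the data because same-numbered pools deviated in opposite directions (correlation -0.312). By the study's criterion there were 5, and 2 with a filter of 200 CP20M, also chosen after seeing the data, where 12 members remained to test. For KO against Epcam+ve cells the 2 calls became 0 with a pseudocount of 1 or with no trend, 4 with a filter of 200 CP20M, 5 with a pseudocount of 40 or all 6 sorted libraries in 1 fit, 7 with DESeq2, 8 with no filter, 15 with edgeR and 2 to 36 leaving out 1 library, and the cause was not tested. For KO against WT crypts, 0 were called, and 0 to 1 leaving out a mouse (Plk1 without WT mouse 1). In the conditional line, in both lines together and for the difference between lines, 0 members were called under every alternative run.

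Library numbers are shared between groups but name different animals. Deviations of same-numbered libraries correlated by 0.095 for HE and Epcam+ve cells, 0.04 for KO and Epcam+ve cells and 0.065 and -0.083 for KO and WT crypts. For eKnockout and eControl crypts the correlations were 0.656 and 0.344. There the library labelled eKnockout mouse 2 correlated more with eControl mouse 3 (0.556) than with eControl mouse 2. The numbers were not taken to pair the samples, because they name different animals. With the number as a replicate block, 35 members were called for HE against Epcam+ve cells, 23 for KO against Epcam+ve cells and 0 in each other comparison. KO pool 1 had 532704 reads, and at 37.5 CP20M per read low members could not be compared there.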
